A study of Mus musculus with 42 samples.

Results

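The genes described here are 6 thyroid hormone genes of the mouse cerebellum: the transporter Slco1c1, the activating deiodinase Dio2, the nuclear receptors Thra and Thrb, and Hr and Klf9, which the hormone induces. They were matched by gene symbol in the deposited count tables, and all 6 were found among 35275 listed genes. Cerebella came from male C57BL/6 mice (substrain C57/BL6NTac) that were fed without restriction until 3 months of age. One set was then kept for 3 months either on unrestricted food (AL), on 16 h without food each day (IF16), or without food for 24 h every other day (EOD), and was collected at 6 months. A second set went through the same 3 regimens, was returned to unrestricted food for 2 months and was collected at 8 months (called refed AL, refed IF16 and refed EOD here, with the suffix R in the labels). Each group held 5 RNA-seq libraries, 30 in all. The labels do not give the hour of collection or the hours since the last meal, and they do not say whether the numbered samples of a group come from separate mice, so p-values measure the spread between these samples.

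Thyroid hormone reaches the brain mostly as thyroxine, which transporters carry across the vessel wall and the choroid plexus. Glial cells turn thyroxine into the active hormone triiodothyronine with the type II deiodinase, and nuclear receptors that sit on DNA with or without hormone then switch target genes between repression and activation. In the developing cerebellum the hormone is needed for granule cell migration and for the growth of Purkinje cell dendrites. Slco1c1 encodes a thyroxine carrier of brain vessels, choroid plexus and astrocytes, and Dio2 encodes the type II deiodinase. Hr encodes a corepressor that binds the receptors, and Klf9 encodes a zinc finger transcription factor that glucocorticoids induce as well.

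In mm10 coordinates, as the deposited tables give them, Slco1c1 lies at chr6:141524386-141570177 on the plus strand and Dio2 at chr12:90724554-90738438 on the minus strand. Thra lies at chr11:98740638-98769006, Thrb at chr14:17660960-18038088, Hr at chr14:70552212-70573548 and Klf9 at chr19:23141226-23166911, all on the plus strand. The tables give 1 value per gene and no exons, so the Thra value sums the receptor that binds hormone and the splice variant that does not. The last 1075 bases of Thra overlap the end of Nr1d1, a clock repressor on the other strand. Dio2 shares 238 bases with the antisense transcript Gm26512, whose mean count was 46.1 over the first 15 libraries and 52.8 over the refed ones. Whether counting used strand is not given in the sources used here, so reads in these overlaps cannot be assigned to one gene.

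Dio2 and Klf9 varied together between libraries, as described further on, and the 250 bases before their RefSeq starts (GRCm38.p6) are shown for that reason. The window of Dio2 is chr12:90739039-90739288 on the minus strand and that of Klf9 is chr19:23140976-23141225 on the plus strand, both written 5′ to 3′. The RefSeq start of Dio2 lies outside the deposited gene span. Capitals mark matches, on either strand, to the thyroid response half-site AGGTCA, the E-box CACGTG or the cyclic AMP response element TGACGTCA, 3 motifs that do not overlap here.
Dio2: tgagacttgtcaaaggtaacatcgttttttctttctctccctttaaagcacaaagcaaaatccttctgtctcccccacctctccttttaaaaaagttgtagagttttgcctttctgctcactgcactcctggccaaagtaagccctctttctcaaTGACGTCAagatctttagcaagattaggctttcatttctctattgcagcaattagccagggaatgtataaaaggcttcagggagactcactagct
Klf9: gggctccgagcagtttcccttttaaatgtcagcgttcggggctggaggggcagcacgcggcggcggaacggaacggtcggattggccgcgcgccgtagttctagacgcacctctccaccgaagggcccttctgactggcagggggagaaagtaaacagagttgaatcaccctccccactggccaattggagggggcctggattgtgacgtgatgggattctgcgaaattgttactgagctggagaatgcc
The Dio2 window held 1 cyclic AMP response element, which begins 95 bases before the start, and none of the other motifs. This element was found in 1.55% of 32851 mouse promoter windows of the same length, the half-site in 14.0% and the E-box in 6.02%. No match was found in the Klf9 window or in that of Slco1c1. Thrb has 2 RefSeq starts in the table: the window of the first (chr14:17660710-17660959) held 1 half-site, and that of the second (chr14:17981394-17981643) held 1 E-box. A pair of half-sites in the same direction with 4 bases between them, searched on both strands, was in none of these windows and in 0.0152% of all windows. These matches describe the letters of the windows and were not tested for binding.

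Total counts ran from 26799825 to 36167435 per library. Summed markers of Purkinje and granule cells were high in every library. The sums ran from 4160 to 6566 CPM (counts scaled to a common library size) over 6 Purkinje genes and from 4504 to 5611 CPM over 6 granule genes. The Purkinje gene Pcp4 was itself low, at 2.23 to 4.91 CPM over all libraries. The sum of 11 choroid plexus markers, a tissue that borders the cerebellum, ran from 33.2 to 4304 CPM, and its median was 2110, 646 and 1984 CPM for AL, IF16 and EOD, and 46.2, 35.0 and 40.7 CPM for the refed groups in the same order. EOD replicate 3 alone carried the pituitary hormone transcripts Gh (21.1 CPM), Prl (3.83 CPM) and Pomc (10.5 CPM) above their levels in the other EOD, AL and IF16 libraries. Libraries also differed in a length gradient, the slope of a library's log2 CPM deviation on log2 gene length. It was -0.16 in AL replicate 4, -0.11 in AL replicate 5, -0.12 in IF16 replicate 1 and 0.14 in EOD replicate 4, and lay between -0.031 and 0.064 in the other 11 libraries of the first set. After refeeding it was negative in 5 of 5 refed AL libraries and positive in 5 of 5 refed IF16 libraries.

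**Figure D1:**
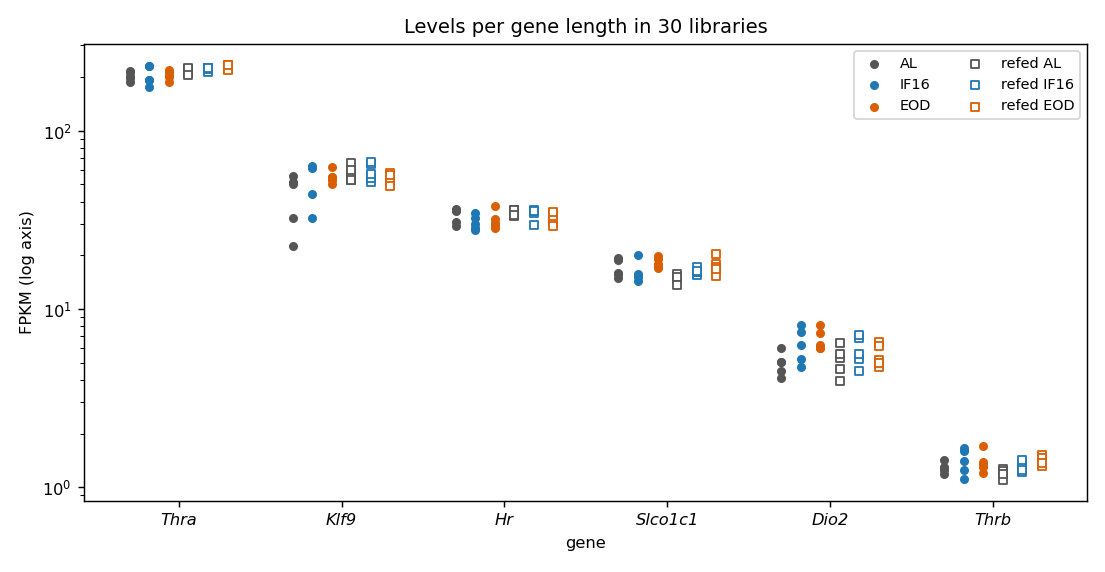
FPKM (log axis) of the 6 genes in 30 libraries; each point is a library, filled for AL, IF16 and EOD and open for refed AL, refed IF16 and refed EOD. The order from Thra to Thrb held in 28 libraries, and Klf9 and Hr changed places in the other 2.

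Levels are compared between genes in FPKM, the deposited count divided by gene length and library total. Thra was the most abundant of the 6 genes, with a median of 216 FPKM and a range of 176 to 234 over the 30 libraries. Klf9 followed at a median of 54.4 FPKM (22.5 to 67.0), then Hr at 33.4 (27.6 to 37.9), Slco1c1 at 16.1 (13.7 to 20.4), Dio2 at 5.58 (3.95 to 8.11) and Thrb at 1.30 (1.097 to 1.71). This order held in 28 libraries. Klf9 and Hr were the only neighbours whose ranges overlapped within a group, in AL and in IF16, and Hr stood above Klf9 in AL replicates 4 and 5. The 2 receptors were far apart: the ratio of Thra to Thrb FPKM had a median of 162 and ran from 107 in IF16 to 209, also in IF16. At the end of the regimens the coefficient of variation between libraries of a group was 12.9% to 22.7% for Dio2 and 10.2% to 32.0% for Klf9, and no group exceeded 15.9% for the other 4 genes. After refeeding it was 14.9% to 20.6% for Dio2, 7.39% to 12.9% for Klf9 and 3.09% to 4.05% for Thra.

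**Figure D2:**
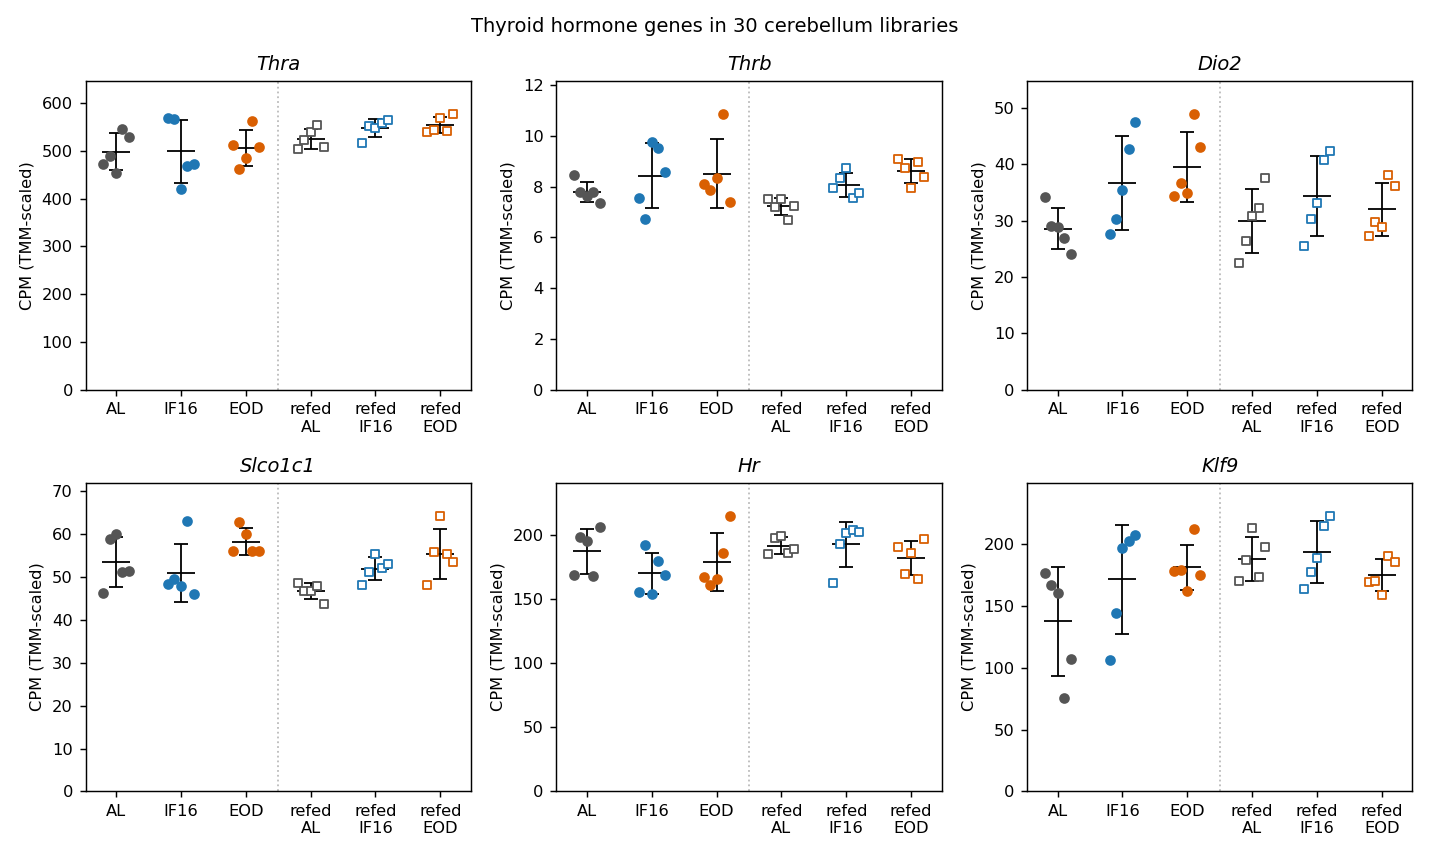
CPM (scaled by the trimmed mean of M-values within each set of 15) of the 6 genes by group; points are libraries, bars the mean and SD of 5. All 5 EOD libraries stand above all 5 AL libraries for Dio2, all 5 refed IF16 and all 5 refed EOD libraries above all 5 refed AL libraries for Thrb, and Klf9 is low in 2 AL libraries and 1 IF16 library.

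The first question was whether the genes differed between fasting and unrestricted feeding at the end of the regimens. None of the 6 members passed the test in IF16 against AL or in EOD against AL (edgeR's quasi-likelihood test, Benjamini-Hochberg adjusted p under 0.05 over all genes tested), with 1 member at an unadjusted p under 0.05 in each comparison and 0 called by DESeq2 in both. Of all 16577 genes tested, 0.0483% were called in IF16 against AL and 0.0664% in EOD against AL, while 9.92% and 14.4% had an unadjusted p under 0.05. In IF16 against AL 4 of 6 members had a positive log2 fold change (median 0.06), beside 48.7% of all genes (median -0.01). In EOD against AL 5 of 6 were positive (median 0.12), beside 46.7% of all genes (median -0.02). Both comparisons use the same AL libraries.

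Slco1c1, the thyroxine carrier, measured 46.3, 58.8, 60.0, 51.2 and 51.5 CPM in AL replicates 1 to 5. In IF16 it measured 48.3, 49.7, 47.8, 63.0 and 46.0 CPM, and in EOD 56.2, 62.9, 60.1, 56.0 and 56.0 CPM. The 3 groups overlapped, and IF16 replicate 4 stood above the other IF16 libraries. Its log2 fold change was -0.07 (SE 0.09, edgeR adjusted p = 0.769) in IF16 and 0.12 (SE 0.09, edgeR adjusted p = 0.468) in EOD against AL. Between libraries of a group, Slco1c1 moved with choroid plexus markers, taken as the mean of their log2 CPM values (Pearson r = 0.736, n = 15, permutation p = 0.0123, or 0.0369 adjusted over 12 relations; Spearman rho = 0.65, permutation p = 0.0292, or 0.0875 adjusted), and r was 0.649 without the 2 libraries farthest from the median of the marker mean. With that mean as a covariate the log2 fold changes were -0.02 in IF16 and 0.07 in EOD. In bulk tissue more or fewer cells of a type and more or less RNA per cell cannot be told apart.

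Dio2, the activating deiodinase, had the smallest p of the 6 members in both comparisons. It measured 34.2, 29.0, 28.9, 26.9 and 24.1 CPM in AL, 27.6, 30.3, 35.5, 42.8 and 47.5 CPM in IF16, and 34.5, 36.7, 34.9, 49.0 and 43.1 CPM in EOD. Every EOD library lay above every AL library, by a narrow margin between the highest AL and the lowest EOD value, while IF16 spanned both. Such a separation of EOD from AL was seen in 2.9% of all genes. The mean was 39.6 ± 6.25 CPM (SD, n = 5) in EOD against 28.6 ± 3.68 in AL, a log2 fold change of 0.47 (SE 0.14, 95% interval 0.16 to 0.77), and it did not pass the test (edgeR adjusted p = 0.261, 0.0907 to 0.706 over the alternatives tried). IF16 gave a log2 fold change of 0.36 (SE 0.14, 95% interval 0.05 to 0.66, edgeR adjusted p = 0.446). Without EOD replicate 3, the library with pituitary transcripts, the EOD value was 0.51 (edgeR adjusted p = 0.317). Dio2 also moved with the length gradient between libraries of a group (Pearson r = 0.709, permutation p = 0.0046, or 0.0276 adjusted; Spearman rho = 0.693, permutation p = 0.00641, or 0.0256 adjusted; n = 15; r = 0.673 without the 2 farthest libraries). With the gradient as a covariate the log2 fold change of Dio2 was 0.28 (SE 0.11) in EOD and 0.26 (SE 0.11) in IF16.

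Neither receptor passed the test. Thra ranged from 453 to 547 CPM in AL, 420 to 569 with IF16 and 461 to 562 with EOD, so the groups lay on one another. The 95% interval of its log2 fold change was -0.18 to 0.19 in IF16 and -0.16 to 0.21 in EOD. Nr1d1, which shares the end of the Thra gene, had a mean of 106.4 ± 15.01 CPM in AL (SD, n = 5), 126 ± 8.82 under IF16 and 116 ± 9.90 under EOD, and was not called (edgeR adjusted p = 0.423 and 0.453). Thrb measured 8.44, 7.78, 7.62, 7.79 and 7.36 CPM in AL, 7.57, 6.73, 9.77, 9.54 and 8.57 in IF16, and 8.11, 7.88, 8.32, 10.9 and 7.41 in EOD. The AL libraries were close together, IF16 spread to both sides of them, and EOD reached higher in 1 library. The log2 fold change of Thrb was 0.11 (SE 0.12) in IF16 and 0.13 (SE 0.12) in EOD. EOD replicate 4, whose length gradient was the most positive, stood above the other EOD libraries, and the EOD value was 0.02 without it.

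Of the 2 hormone targets, Hr had a mean of 187 ± 17.6 CPM with AL feeding, 170 ± 16.3 under IF16 and 179 ± 22.3 under EOD (SD, n = 5 each), with overlapping groups. Its log2 fold change was -0.14 (SE 0.09, edgeR adjusted p = 0.599) in IF16 and -0.07 (SE 0.09, edgeR adjusted p = 0.699) in EOD. Klf9 measured 177, 167, 161, 75.7 and 107 CPM in AL, 106, 145, 197, 203 and 207 CPM in IF16, and 178, 179, 162, 212 and 175 CPM in EOD. The lowest 3 values were those of AL replicates 4 and 5 and IF16 replicate 1, the libraries with the most negative length gradients, and the highest was that of EOD replicate 4, with the most positive one. The log2 fold change of Klf9 was 0.32 (SE 0.21, edgeR adjusted p = 0.601) in IF16 and 0.40 (SE 0.21, edgeR adjusted p = 0.371) in EOD. Klf9 followed the gradient between libraries of a group (Pearson r = 0.931, permutation p = 2e-05, or 0.00024 adjusted over 12 relations; Spearman rho = 0.875, permutation p = 9e-05, or 0.00108 adjusted; n = 15; r = 0.889 without the 2 farthest libraries). With the gradient as a covariate the log2 fold change was 0.15 (SE 0.08) in IF16 and 0.07 (SE 0.09) in EOD, and with the 4 steepest libraries left out it was 0.16 (SE 0.10) and 0.04 (SE 0.10).

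**Figure D3:**
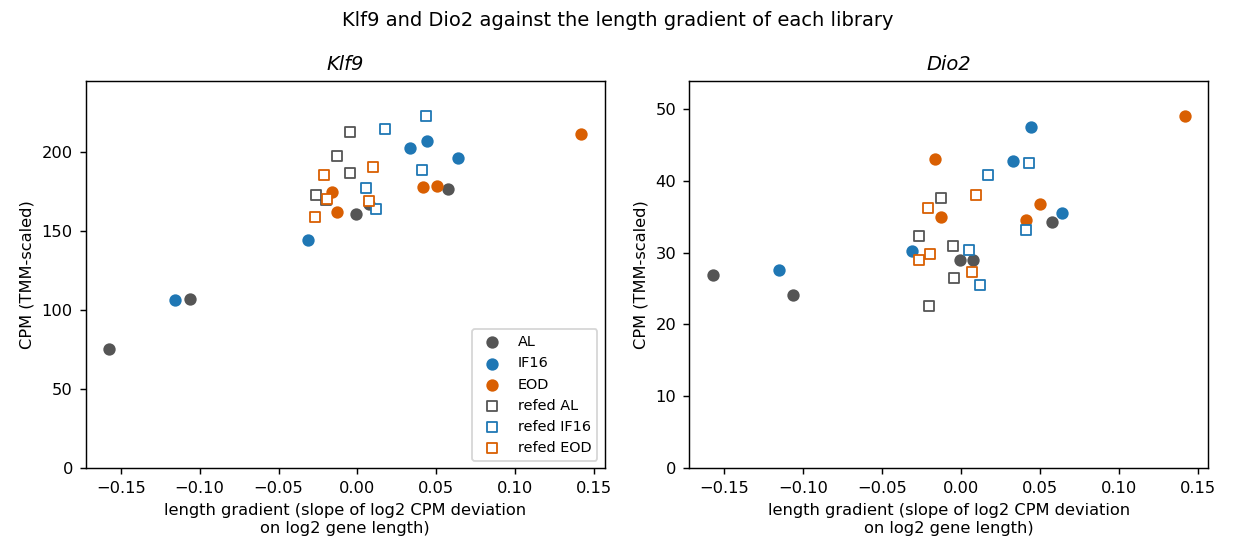
CPM of Klf9 (left) and Dio2 (right) against the length gradient, computed within each set of 15 libraries; each point is a library, filled at the end of the regimens and open after refeeding. Klf9 runs from 75.7 CPM at the most negative gradient to 212 CPM at the most positive one, while the refed libraries occupy a narrow range of gradients.

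The 2 fasting schedules were compared with each other as well. None of the 6 members passed in EOD against IF16 (edgeR 0, 1 at an unadjusted p under 0.05, DESeq2 0), and edgeR called 0% of all genes (3.62% with an unadjusted p under 0.05, and 1 gene called by DESeq2). Slco1c1 had the smallest p among the members, with a log2 fold change of 0.19 (SE 0.09, 95% interval 0.0020 to 0.38, edgeR adjusted p = 0.977). With the choroid plexus mean as a covariate the value was 0.09 (SE 0.08), beside summed choroid plexus markers of 40.4 to 3127 CPM in IF16 and 767 to 2924 CPM in EOD. The other 5 members had log2 fold changes between 0.01 and 0.11.

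**Figure D4:**
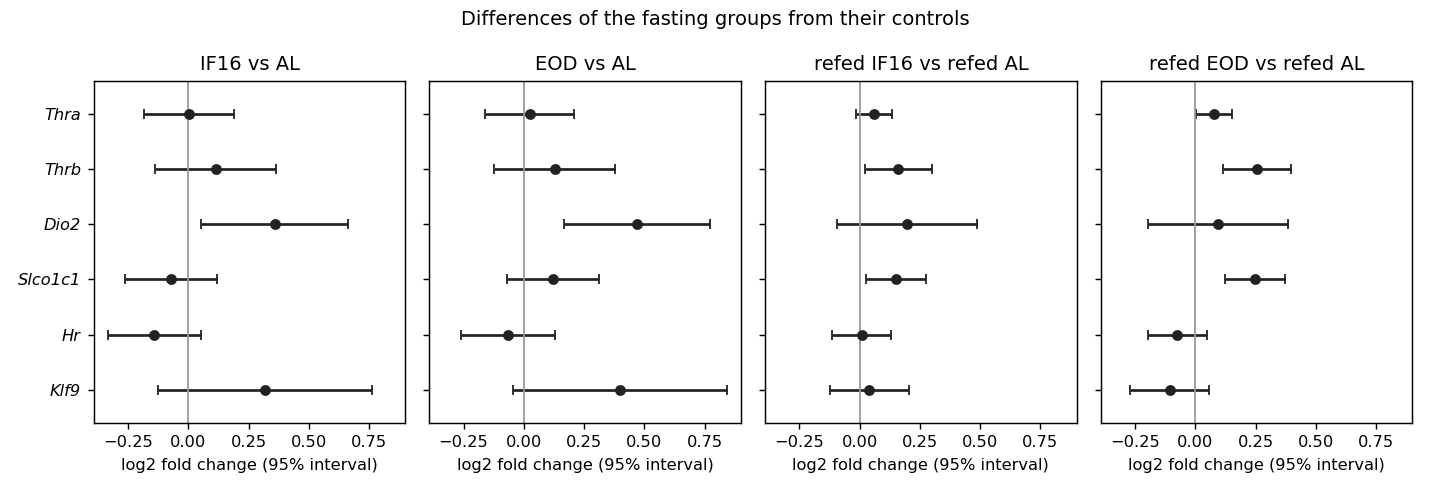
Log2 fold change of each gene (point) with its 95% interval (bar) in 4 comparisons with the controls of the same set. Intervals are narrower after refeeding, and Dio2 in EOD against AL has the largest point estimate, 0.47.

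After 2 months of refeeding the question was whether differences remained or appeared. None of the 6 members passed in refed IF16 against refed AL (2 at an unadjusted p under 0.05, DESeq2 0), where 0.17% of all 16444 genes were called and 9.58% had an unadjusted p under 0.05. In refed EOD against refed AL edgeR called 0 members, with 3 at an unadjusted p under 0.05, and DESeq2 called 1. Of all genes 0.0426% were called there and 8.5% had an unadjusted p under 0.05. All 6 members had a positive log2 fold change in refed IF16 (median 0.11), beside 48.8% of all genes (median -0.0023), and 4 of 6 in refed EOD (median 0.09), beside 50.3% of all genes (median 0.00067). With the length gradient as a covariate Dio2 (-0.0063), Hr (-0.050) and Klf9 (-0.16) were negative in refed IF16. Both comparisons use the same refed AL libraries. The spread between libraries was smaller than in the first set, with a common coefficient of biological variation of 8.05% against 14.3%.

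Slco1c1 measured 48.7, 46.7, 46.7, 47.9 and 43.8 CPM in refed AL, 48.2, 51.3, 55.3, 52.2 and 53.0 CPM in refed IF16, and 48.2, 55.8, 64.3, 55.5 and 53.5 CPM in refed EOD. Replicate 1 of each fasted group lay within the refed AL range and the other 4 libraries of each lay above it. The log2 fold change was 0.25 (SE 0.06, 95% interval 0.12 to 0.37) in refed EOD and 0.15 (SE 0.06, 95% interval 0.03 to 0.28) in refed IF16. Neither passed edgeR's test (adjusted p = 0.171 and 0.419), while DESeq2 called the refed EOD value (log2 fold change 0.25, adjusted p = 0.0164). Without refed EOD replicate 1 it was 0.29 and edgeR called it (adjusted p = 0.0428). With the choroid plexus mean as a covariate it was 0.24 (SE 0.06, edgeR adjusted p = 0.145), and Slco1c1 and that mean had r = 0.405 over the 15 refed libraries (permutation p = 0.238, or 0.475 adjusted; rho = 0.368, permutation p = 0.222, or 0.533 adjusted; r = -0.009 without the 2 farthest libraries). Of 8 endothelial markers, none was called in either comparison, and their sum was 411 to 468 CPM in refed AL, 397 to 486 in refed IF16 and 425 to 487 in refed EOD. Of 8 markers of astrocytes and Bergmann glia, which also use this carrier, all 8 had positive log2 fold changes in both comparisons and Gja1 rose in both, by 0.31 (SE 0.04, edgeR adjusted p = 0.0116) in refed IF16 and 0.27 (SE 0.04, edgeR adjusted p = 0.0427) in refed EOD. Aqp4 rose in refed IF16 by 0.23 (SE 0.04, edgeR adjusted p = 0.0375). These calls were lost with the length gradient as a covariate, where Gja1 had 0.22 (SE 0.06, edgeR adjusted p = 0.999) in refed IF16 and 0.26 (SE 0.04, edgeR adjusted p = 0.0621) in refed EOD, and Aqp4 had 0.11 (SE 0.05, edgeR adjusted p = 0.999). They were also lost in a fit of all 30 libraries, that of Gja1 in refed EOD with upper-quartile scaling (edgeR adjusted p = 0.0534), and that of Aqp4 without any 1 library other than refed IF16 replicate 1. Leaving out 1 library ended the Gja1 call in refed IF16 without refed IF16 replicate 3 and in refed EOD without any 1 library other than refed AL replicate 4 or refed EOD replicate 1. The summed level of the 8 markers was 2719 to 3010 CPM in refed AL, 2984 to 3236 in refed IF16 and 2959 to 3236 in refed EOD, and their part in the Slco1c1 values was not tested.

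Dio2 measured 22.6, 26.5, 30.9, 32.4 and 37.6 CPM in refed AL, 25.5, 30.4, 33.1, 40.8 and 42.4 CPM in refed IF16, and 27.2, 29.7, 28.9, 38.1 and 36.2 CPM in refed EOD. The groups lay on one another. In refed AL and refed IF16 the values rose in the order of replicate number, which the labels do not tie between groups. The refed IF16 fit with replicate number as a block is given with the other settings at the end. Dio2 had a log2 fold change of 0.20 (SE 0.14, edgeR adjusted p = 0.676) in refed IF16 and 0.09 (SE 0.14, edgeR adjusted p = 0.911) in refed EOD.

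Thrb measured 7.51, 7.19, 7.50, 6.69 and 7.23 CPM in refed AL, 7.97, 8.34, 8.75, 7.54 and 7.77 CPM in refed IF16, and 9.10, 8.75, 7.93, 8.96 and 8.39 CPM in refed EOD. Both fasted groups lay wholly above refed AL, by a very narrow margin for refed IF16 replicate 4, and they overlapped each other. Such a separation was seen in 2.18% of all genes in refed IF16 and in 1.87% in refed EOD. The mean was 8.63 ± 0.470 CPM in refed EOD, 8.07 ± 0.481 in refed IF16 and 7.22 ± 0.334 in refed AL (SD, n = 5 each). The log2 fold change was 0.26 (SE 0.07, 95% interval 0.12 to 0.40) in refed EOD and 0.16 (SE 0.07, 95% interval 0.02 to 0.30) in refed IF16. Neither passed (edgeR adjusted p = 0.228 and 0.457), with 0.133 to 0.9998 for refed EOD over the alternatives tried. With the length gradient as a covariate the value was 0.25 (SE 0.06) in refed EOD and 0.07 (SE 0.10) in refed IF16, where all refed AL gradients were negative and all refed IF16 gradients positive.

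Thra, the abundant receptor, ranged from 504 to 554 CPM in refed AL, 516 to 565 in refed IF16 and 540 to 577 in refed EOD. Its log2 fold change was 0.08 (SE 0.04, 95% interval 0.0036 to 0.15, edgeR adjusted p = 0.562) in refed EOD and 0.06 (SE 0.04, edgeR adjusted p = 0.605) in refed IF16. Nr1d1 had values of -0.08 and -0.06 in the same comparisons. Neither target passed the test. The log2 fold change of Hr was 0.01 (SE 0.06) in refed IF16 and -0.07 (SE 0.06) in refed EOD, and that of Klf9 was 0.04 (SE 0.08) and -0.11 (SE 0.08). Klf9 ranged from 170 to 213 CPM in refed AL, 164 to 223 in refed IF16 and 159 to 191 in refed EOD, without libraries as low as the 3 of the first set. Between the refed fasted groups, refed EOD against refed IF16, edgeR called 0 members (0 at an unadjusted p under 0.05, DESeq2 0), beside 0.0182% of all genes called and 9.75% with an unadjusted p under 0.05. No member was separated between these groups, beside 1.26% of all genes.

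Whether a difference from the controls changed between the 2 sets was tested in 1 fit of all 30 libraries, as the difference after refeeding minus the difference at the end of the regimen. edgeR called 0 of 6 members for IF16 (0 at an unadjusted p under 0.05, DESeq2 0) and 0 of 6 for EOD (1 at an unadjusted p under 0.05, DESeq2 0). Of 16877 genes 0.0474% were called for IF16 and 0.0119% for EOD, with 7.21% and 10.3% at an unadjusted p under 0.05. The largest member value was that of Klf9 for EOD, -0.50 (SE 0.24, 95% interval -0.99 to -0.02, edgeR adjusted p = 0.480), and it was -0.19 (SE 0.12) with the length gradient as a covariate. Dio2 gave -0.38 (SE 0.22, edgeR adjusted p = 0.513) for EOD and -0.16 (SE 0.22) for IF16. The change in its difference from the controls between the 2 sets thus did not pass. Slco1c1 gave 0.23 (SE 0.11, edgeR adjusted p = 0.696) for IF16 and 0.12 (SE 0.11) for EOD.

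The controls of the 2 sets, refed AL at 8 months against AL at 6 months, differ in age and in the table they were counted in, and these cannot be told apart. DESeq2 called 1 of 6 members, beside 4505 of 26114 genes. edgeR called 0 of 6 members (2 at an unadjusted p under 0.05), although it called 23.9% of all genes and 40% had an unadjusted p under 0.05. That share rests on the fit: 4030 genes were called in the fit of all 30 libraries, 28 in a fit of these 2 groups alone, 226 with the length gradient as a covariate, 405 without the 4 steepest libraries and 1291 with the choroid plexus mean as a covariate. No member had groups that did not overlap, beside 9.72% of all genes. Klf9 had a log2 fold change of 0.45 (SE 0.17, 95% interval 0.10 to 0.79, edgeR adjusted p = 0.0535) and was called by DESeq2 (adjusted p = 0.0371). The call for Klf9 was also made by edgeR without AL replicate 1, 2 or 3 (log2 fold change 0.56, 0.53 and 0.52), while the value was -0.0023 (SE 0.09) with the length gradient as a covariate and 0.15 (SE 0.10) without the 4 steepest libraries. Slco1c1 had a log2 fold change of -0.20 (SE 0.08, edgeR adjusted p = 0.0622) and was called without AL replicate 1 (-0.24, adjusted p = 0.0230), beside summed choroid plexus markers of 45.3 to 4304 CPM in AL and 44.2 to 2015 CPM in refed AL. With the choroid plexus mean as a covariate the Slco1c1 value was -0.11 (SE 0.07). The remaining 4 members had log2 fold changes between -0.12 and 0.07. Nr1d1 rose by 0.40 (SE 0.08, edgeR adjusted p = 0.00298, and 0.0612 in a fit of the 2 groups alone), while its neighbour Thra had 0.07 (SE 0.07).

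The members were then compared with one another between libraries of the same group, as log2 CPM minus the group mean, over 15 pairs in each set. By Pearson r, Dio2 and Klf9 were the only pair past an adjusted p of 0.05 in each set. In the first set Pearson r was 0.714 (n = 15, permutation p = 0.0026, or 0.039 adjusted) and Spearman rho 0.746 (permutation p = 0.00062, or 0.0093 adjusted). In the refed set r was 0.819 (n = 15, permutation p = 0.00186, or 0.0279 adjusted) and rho 0.786 (permutation p = 0.00352, or 0.0528 adjusted). Without the 2 libraries farthest from the median of Dio2 r was 0.613 and 0.787, and neither set then had a pair past an adjusted p of 0.05. After both genes were regressed on the length gradient, r was 0.213 in the first set (permutation p = 0.471, or 0.642 adjusted) and 0.826 in the refed set (permutation p = 0.00083, or 0.0125 adjusted), a check chosen after seeing the data. Libraries with more Dio2 thus had more Klf9 in both sets, and after the gradient was taken out the relation passed in the refed set and not in the first. The permutations treat the libraries of a group as exchangeable. In the order of replicate number, Dio2 rose in refed AL (22.6 to 37.6 CPM) and refed IF16 (25.5 to 42.4 CPM), and Klf9 in refed IF16 (164 to 223 CPM). If replicate number stands for something the libraries share, the refed p-values are too small, and this was not tested. Among the pairs that did not pass, Thra and Klf9 had r = -0.65 in the first set (permutation p = 0.0185, or 0.126 adjusted; rho = -0.664, permutation p = 0.0177, or 0.084 adjusted; r = -0.565 without the 2 farthest) and r = 0.374 in the refed set (permutation p = 0.214, or 0.439 adjusted; rho = 0.425, permutation p = 0.147, or 0.368 adjusted; r = 0.396 without the 2 farthest). Thra and Thrb had r = -0.336 and -0.523 (permutation p = 0.310 and 0.0616, adjusted 0.674 and 0.273; rho = -0.382 and -0.536, permutation p = 0.234 and 0.0549, adjusted 0.491 and 0.206; r = -0.104 and -0.548 without the 2 farthest).

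**Figure D5:**
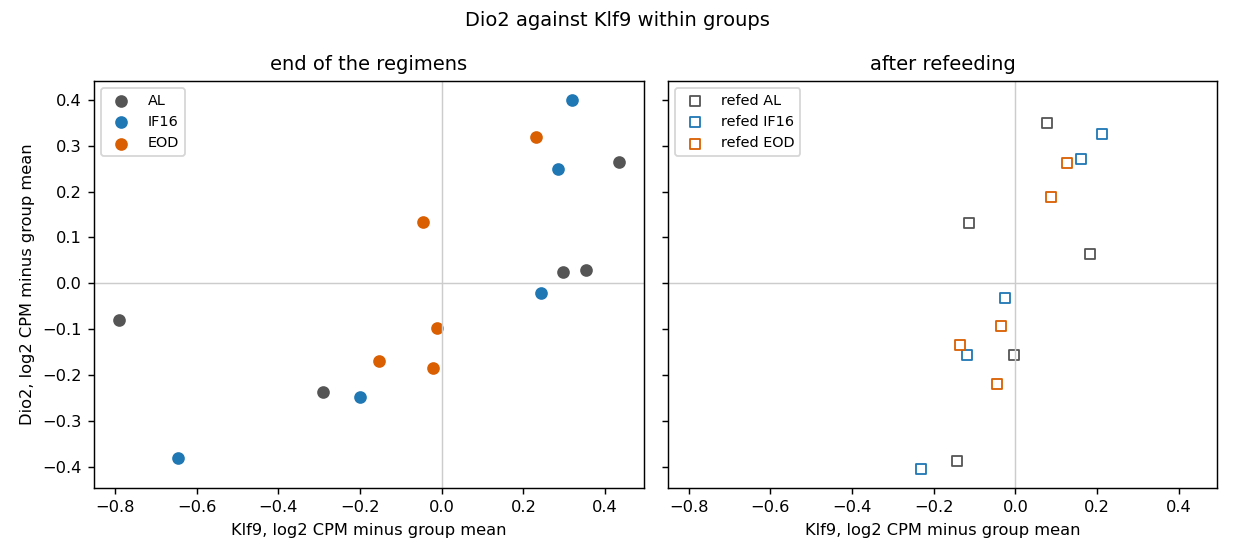
Dio2 against Klf9, each as log2 CPM minus its group mean, at the end of the regimens (left) and after refeeding (right); each point is a library. Pearson r is 0.714 on the left and 0.819 on the right, with a wider range of Klf9 on the left.

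Thrb also moved with the length gradient in the first set (Pearson r = 0.661, permutation p = 0.00718, or 0.0287 adjusted; Spearman rho = 0.679, permutation p = 0.00624, or 0.0256 adjusted; n = 15; r = 0.761 without the 2 farthest libraries). Of the 12 relations of a member to the gradient or to the choroid plexus mean, 4 passed an adjusted p of 0.05 in the first set, those of Klf9, Dio2 and Thrb to the gradient and of Slco1c1 to choroid plexus, and 0 passed in the refed set. In the refed set the relation of Klf9 to the gradient had r = 0.561 (permutation p = 0.0563, or 0.293 adjusted; rho = 0.6, permutation p = 0.0372, or 0.254 adjusted; r = 0.388 without the 2 farthest libraries).

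For each member the genes with the most similar course over the 30 libraries were taken from 12976 genes, by Pearson r of log2 CPM minus the mean of each set. For Dio2 they were Paqr8 (r = 0.909), Tns3 (0.894) and Tmem229b (0.892), each at 0.854 or higher within both sets. For Klf9 they were Timp3 (r = 0.953), Dhx9 (0.952) and Ryr2 (0.948), and these stood at 0.955 or higher in the first set and at 0.716 to 0.894 in the refed set. For Slco1c1, Arl6ip1 (r = 0.802) and Prps2 (0.729) came first. For Thra the genes were Abhd17a (r = 0.848), Klhdc3 (0.838) and Abhd8 (0.837), for Thrb Plxdc2 (0.752), Lrrc4c (0.743) and Fstl5 (0.742), and for Hr Slc43a2 (0.824), Zc3h18 (0.794) and Fam222a (0.792). These are descriptions over n = 30 libraries that share depth and gradient differences.

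The other genes of the pathway were taken as lists. Of 9 further transport and binding genes, 8 were tested at the end of the regimens and 7 after refeeding, and edgeR called none in any of the 9 comparisons. At an unadjusted p under 0.05 there were 0 in IF16, 1 in EOD, 0 in refed IF16 and 1 in refed EOD against their controls, 2 in EOD against IF16 and 0 in refed EOD against refed IF16. The shares over all genes were 9.92%, 14.4%, 9.58%, 8.5%, 3.62% and 9.75% in that order. The changes between the sets gave 1 for IF16 and 1 for EOD, beside 7.21% and 10.3% of all genes. In refed AL against AL there were 3, beside 40% of all genes. DESeq2 called 2 there, Slc16a10 and Slc7a8 (for Slc7a8 edgeR gave 0.22, SE 0.08, adjusted p = 0.0569). DESeq2 called 0 of this list in the other 8 comparisons. The smallest p belonged to Slco1a5 under IF16 (-1.07 on the log2 scale, SE 0.53, edgeR adjusted p = 0.517, at 0.368 CPM in AL and 0.176 in IF16), and to Slc7a5, an amino acid and thyroid hormone carrier, in EOD (0.25, SE 0.09, edgeR adjusted p = 0.317) and refed EOD (-0.18, SE 0.07, edgeR adjusted p = 0.532). For refed IF16 it was Slco1a4 (-0.12, SE 0.08, edgeR adjusted p = 0.637). In EOD against IF16 all 8 genes were positive, with a median of 0.13 beside -0.00065 for all genes. Ttr, also a choroid plexus marker, is in this list. The other 2 deiodinases, Dio1 and Dio3, were below the filter on low counts in the main edgeR fits, which leaves Dio2 as the only deiodinase tested there. DESeq2, run without that filter, called neither in any of the 9 comparisons.

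Of 11 receptor partners and coregulators edgeR called none in the comparisons within a set, with 1 at an unadjusted p under 0.05 in IF16, 3 in EOD, 1 in refed IF16 and 0 in refed EOD. The shares over all genes were 9.92%, 14.4%, 9.58% and 8.5%. DESeq2 called 0, 0, 1 (Ncoa2) and 0 of the 11, beside 94, 131, 108 and 90 of all genes. Tbl1xr1, a subunit of the corepressor complex, had the smallest p at the end of the regimens, with 48.2 ± 4.87 CPM for AL libraries, 60.6 ± 3.54 for IF16 and 58.5 ± 6.87 for EOD (SD, n = 5). Its log2 fold change was 0.33 (SE 0.09, edgeR adjusted p = 0.266) in IF16 and 0.28 (SE 0.09, edgeR adjusted p = 0.271) in EOD. Its IF16 libraries (57.51 to 66.65 CPM) lay wholly above AL (43.13 to 54.85 CPM), as in 1.55% of all genes. Its EOD libraries (47.13 to 64.89 CPM) overlapped AL. In a fit of all 30 libraries 1 of the 11 was called higher in IF16, beside 135 of all genes, and none in EOD. After refeeding the coactivator Ncoa2 had the smallest p in refed IF16 (0.16, SE 0.04, edgeR adjusted p = 0.154). In refed AL against AL, where 23.9% of all genes were called, 4 of the 11 rose in the fit of 30 libraries, the coactivators Med1 (0.23), Ncoa1 (0.40) and Ncoa2 (0.40) and the corepressor Ncor1 (0.42), and 1 fell, the deacetylase Hdac3 (-0.21), with edgeR adjusted p from 0.0103 to 0.0395. None of the 11 was called there in a fit of the 2 groups alone (where 28 of all genes were), with the length gradient as a covariate (226 of all genes) or without the 4 steepest libraries (405 of all genes).

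Of 18 genes known to respond to thyroid hormone edgeR called none within a set. The counts at an unadjusted p under 0.05 were 1 in IF16, 5 in EOD, 2 in refed IF16 and 4 in refed EOD, and the medians were 0.01, -0.03, 0.03 and 0.02. Of all genes 9.92%, 14.4%, 9.58% and 8.5% had such a p, in the same order. DESeq2 called 1 (Nrgn), 2 (Nrgn and Mag), 0 and 0, beside 94, 131, 108 and 90 of all genes. In a fit of all 30 libraries edgeR called 1 of the 18 lower in IF16 and 2 lower in EOD, beside 135 and 188 of all genes. Nrgn, a calmodulin-binding protein of forebrain neurons, had the smallest p in both fasting groups, with log2 fold changes of -2.66 (SE 0.64, edgeR adjusted p = 0.196) in IF16 and -2.65 (SE 0.64, edgeR adjusted p = 0.189) in EOD. Its level was 8.995 to 135 CPM over the AL libraries, 7.05 to 12.2 in IF16 and 7.27 to 10.9 in EOD, so the groups overlapped and the high values were in AL libraries. In refed AL against AL, again beside 23.9% of all genes called, 5 of the 18 rose (Camk4, Itpr1, Pcp2, Reln and Rora, from 0.31 to 0.47) and 5 fell (Aldh1a1, Mag, Mobp, Ntf3 and Nrgn, from -0.25 to -2.82), with edgeR adjusted p from 0.00164 to 0.0322. In a fit of the 2 groups alone 0 of the 18 were called, and with the length gradient as a covariate, as without the 4 steepest libraries, 2 were called higher and 1 lower. Mag and Mobp are also oligodendrocyte markers, of which 4 of 8 fell in that comparison, and Itpr1 and Pcp2 are Purkinje markers, of which 2 of 6 rose.

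Klf9 also responds to glucocorticoids, and genes of that response and of the circadian clock were taken as further lists. Of 13 glucocorticoid receptors and responsive genes all 13 had positive log2 fold changes in IF16 (median 0.69) and in EOD (median 0.71), beside medians over all genes of -0.0062 and -0.018. edgeR called 1 of them in each comparison, Per1, and 10 and 11 had an unadjusted p under 0.05, while DESeq2 called 5 and 4. Per1, a clock repressor gene that glucocorticoids induce, rose by 0.73 (SE 0.12, edgeR adjusted p = 0.0451) in IF16 and 0.72 (SE 0.12, edgeR adjusted p = 0.0436) in EOD, from 92.3 to 132 CPM in AL to 147 to 211 in IF16 and 149 to 225 in EOD. Without 1 library the Per1 call held in IF16 only without AL replicate 2 or IF16 replicate 1 (edgeR adjusted p otherwise up to 0.157) and in EOD only without EOD replicate 5 (otherwise up to 0.208). Of 14 clock genes 3 rose in IF16, Per1, Ciart (0.89, SE 0.11, edgeR adjusted p = 0.00174) and Tef (0.49, SE 0.06, edgeR adjusted p = 0.00174). In EOD 2 of the 14 rose, Per1 and Tef (0.34, SE 0.06, edgeR adjusted p = 0.0485). At an unadjusted p under 0.05 there were 13 of 14 in IF16 (11 higher, 2 lower) and 10 of 14 in EOD (9 higher, 1 lower), and DESeq2 called 8 and 6. Beside both lists, edgeR called 0.0483% of all genes in IF16 and 0.0664% in EOD. An unadjusted p under 0.05 was found for 9.92% and 14.4% of all genes, and DESeq2 called 94 and 131 of all genes. Leaving out 1 library gave 2 to 3 clock genes called in IF16 and 0 to 1 in EOD, where Tef was called in none of these fits (adjusted p up to 0.239). In EOD 0 genes of both lists were called with DESeq2 size factors, with replicate number as a block, in a fit of the 2 groups alone or without the 4 steepest libraries. Under the other settings tried, 1 to 6 clock genes were called in EOD. After refeeding edgeR called 0 genes of both lists, with 5 of 14 clock genes at an unadjusted p under 0.05 in refed IF16 and 1 in refed EOD, and 4 and 2 of the 13 glucocorticoid genes. Such a p was found for 9.58% and 8.5% of all genes. DESeq2 called 0 of both lists in these 2 comparisons. Dbp had the smallest p of the clock genes (-0.26, SE 0.09, in refed IF16 and -0.24, SE 0.09, in refed EOD) and Pdk4 that of the glucocorticoid genes (0.37, SE 0.14, and 0.36, SE 0.14), with edgeR adjusted p from 0.341 to 0.458. For IF16 the change of the difference between the 2 sets was itself called for Ciart (-0.89, SE 0.13, edgeR adjusted p = 0.00301) and Tef (-0.37, SE 0.07, edgeR adjusted p = 0.0454). For Tef that call held in 4 of 20 fits without 1 library, those without AL replicate 1, IF16 replicate 2, refed AL replicate 1 or refed IF16 replicate 1, with edgeR adjusted p up to 0.138 in the others. Klf9, beside these, had log2 fold changes of 0.32 in IF16 and 0.40 in EOD, with 95% intervals of -0.13 to 0.76 and -0.05 to 0.84. In refed AL against AL, beside 23.9% of all genes called, 7 of the 14 clock genes rose, Ciart, Clock, Dbp, Nr1d1, Nr1d2, Per3 and Tef, by 0.22 to 0.54, and Npas2 fell by 0.40. In a fit of the 2 groups alone 0 of the 14 were called, and with the length gradient as a covariate, as without the 4 steepest libraries, 3 were called higher and 0 lower. Of the 13 glucocorticoid genes Nr3c2, the mineralocorticoid receptor, rose by 0.38 (SE 0.08, edgeR adjusted p = 0.00333) there, and was not called in a fit of the 2 groups alone (adjusted p = 0.0639) or with the gradient covariate (0.0597).

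In the comparisons not yet given by name, edgeR's smallest p in a list belonged to the following genes, with log2 fold changes. In EOD against IF16 they were Mag (-0.23), Ciart (-0.40) and Cdkn1a (0.32), all at an edgeR adjusted p of 0.977. In refed EOD against refed IF16 they were Slco1a4 (0.15), Ncoa2 (-0.09), Pcp2 (0.21), Cry2 (-0.06) and Mt1 (0.18), with edgeR adjusted p from 0.333 to 0.712. For the change of the IF16 difference between sets they were Slco1a4 (-0.26), Tbl1xr1 (-0.30), Nrgn (2.58) and Mt2 (-1.49), with edgeR adjusted p from 0.0820 to 0.685. For that of EOD they were Slc7a5 (-0.43), Tbl1xr1 (-0.24), Nrgn (2.57), Tef (-0.27) and Mt2 (-1.19), with edgeR adjusted p from 0.288 to 0.467. None of these passed the test.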

How the data were processed

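RNA-seq libraries were deposited as tables of read counts per gene, not normalized, with the deposited FPKM values beside them; the latter equal count per gene length and table total. Per the submitters' processing notes, STAR 2.5, HTSeq 0.6.1 and DESeq2 were used with build mm10. Strand setting and annotation are not given in the sources used here. Each set of 15 libraries was fitted in edgeR 4.0.16 (R 4.3.3) by the quasi-likelihood test, with TMM scaling, filterByExpr by group and Benjamini-Hochberg adjustment over all genes, called at 0.05. A joint fit of 30 libraries gave the differences between sets and refed AL against AL. SE is the log2 fold change over the root of F. Relations used 100000 permutations within groups, two-sided. DESeq2 1.42.0 and other settings were alternatives. Members and lists were chosen with earlier results of these data known. Of each list, genes called in any comparison and the gene with the smallest p in a comparison are named, and Nr1d1 always. Some genes this rule names are not reported here. The scripts were tested on simulated data. The 12 H3K9me3 samples were not analysed here.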

Additional observations from a re-analysis of the deposited data

Results flagged for a closer look

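In 3 of 36 sets of 5 libraries (6 genes in 6 groups) 1 library stood far from the other 4, by a gap over 0.71 of the range of the set, and chance gives this in about 1 in 20 sets. Thrb measured 10.86 CPM in EOD replicate 4, against 7.408 to 8.323 CPM in the other EOD libraries. Slco1c1 measured 62.99 CPM in IF16 replicate 4, against 45.98 to 49.65 CPM, and that library had the highest choroid plexus mean of IF16 (5.045 log2 CPM). Hr measured 162.5 CPM in refed IF16 replicate 1, against 192.8 to 203.6 CPM.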

How the results depend on the processing

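Of 1218 member values under other settings, 1155 kept their direction and their side of the threshold, 9 newly passed it and 54 changed sign, none of them called; the cause of the changes was not tested. Members called in refed EOD against refed AL were 1 by DESeq2 and 1 with the replicate block (Slco1c1, log2 fold change 0.24, adjusted p = 0.0485), and in refed AL against AL 1 with upper-quartile scaling (Slco1c1, -0.22) and 1 by DESeq2 (Klf9). Leaving out 1 library gave 0 to 1 called members in refed EOD against refed AL, 0 to 2 in refed AL against AL and 0 to 0 in the other comparisons. Pairs of members past the threshold numbered 0 in each set without the 2 farthest libraries and 0 in the first set after regression on the length gradient. Leaving out the 4 steepest libraries together, and that regression, were chosen after seeing the data.

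Replicate numbers were not taken to pair the samples, since nothing in the labels ties them and not every correlation was above 0.1; in the refed set the values give a hint of pairing. Same-numbered libraries had a mean correlation of -0.0448 (-0.513 to 0.297) in the first set and 0.118 (-0.0536 to 0.415) in the refed set, and 0 of 15 and 7 of 15 libraries correlated best with their own number. With the replicate block the genes called went from 8 to 5 in IF16 and from 11 to 4 in EOD against AL, from 28 to 95 in refed IF16 and from 7 to 45 in refed EOD against refed AL, from 3 to 40 in refed EOD against refed IF16, and from 2 to 10 for the change of the EOD difference. For Dio2 in refed IF16 against refed AL the block took the SE from 0.14 to 0.05, with an adjusted p of 0.110.

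Values that changed sign were as follows. With upper-quartile scaling Thra was -0.012 in IF16 and -0.0012 in EOD against AL, and the change of the EOD difference for Hr was 0.0091. With the length gradient as a covariate EOD against AL gave Thrb -0.011, and EOD against IF16 gave Thrb -0.055 and Klf9 -0.079. refed IF16 against refed AL gave Dio2 -0.0063, Hr -0.050 and Klf9 -0.16, and refed EOD against refed IF16 gave Dio2 0.081 and Klf9 0.040. The change of the EOD difference for Thra was -0.024, and refed AL against AL gave Dio2 -0.20 and Klf9 -0.0023. With the choroid plexus covariate the values were Thra -0.00070 in EOD against IF16, Hr -0.0081 in refed IF16 against refed AL and Dio2 -0.10 in refed AL against AL. Without the 4 steepest libraries they were Thrb -0.0066 in EOD against AL, Thrb -0.13, Dio2 -0.066 and Klf9 -0.12 in EOD against IF16, 0.0075 for the change of the EOD difference of Hr, and Dio2 -0.044 in refed AL against AL. Over the fits without 1 library, values spanned 0 on both sides: Thra -0.049 to 0.061 in IF16 and -0.017 to 0.058 in EOD against AL, and in EOD against IF16 Thra -0.037 to 0.072, Thrb -0.090 to 0.070, Hr -0.00019 to 0.12 and Klf9 -0.052 to 0.15. The same held after refeeding for Hr (-0.0077 to 0.067) and Klf9 (-0.012 to 0.097) in refed IF16 against refed AL, and for Thra (-0.0035 to 0.027) in refed EOD against refed IF16. The change of the IF16 difference for Thrb ran from -0.028 to 0.11 and that of EOD for Hr from -0.052 to 0.065. In refed AL against AL Dio2 ran from -0.034 to 0.15 and Hr from -0.017 to 0.065.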
